A study of Mus musculus with 6 samples.

Results

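Duox1, Prdx2 and Gsta4 are genes of hydrogen peroxide and glutathione chemistry for which a circular RNA array of mouse hippocampus carried an mRNA probe. They were chosen by probe: A_51_P475138 for Duox1, and for Prdx2 (A_51_P147207) and Gsta4 (A_51_P112223) the probes whose transcript accessions, NM_011563 and NM_010357, RefSeq gives to those genes. These are 3 of the 50 mRNA probes, each printed in 10 spots, on an array that also held 14236 probes for circular RNAs (circRNAs). The samples were hippocampi of male ICR mice aged 3 to 4 months, 3 wild type and 3 labelled as Nrf2 gene knockouts, with 1 array per mouse. The labels do not name the allele or a litter. All RNA had been digested with RNase R, which degrades linear RNA, so these probes read what linear transcript remained or circles that contain the probed exon, and these sources were not separated.

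Nrf2, encoded by Nfe2l2, is a transcription factor that under oxidative stress switches on genes for antioxidant and detoxifying enzymes by binding a motif called the antioxidant response element. Dual oxidases such as Duox1 sit in membranes and make hydrogen peroxide on purpose. Peroxiredoxins such as Prdx2 reduce peroxide with the help of thioredoxin, and glutathione transferases such as Gsta4 join glutathione to reactive products of lipid peroxidation. The members thus stand for a source of peroxide, a peroxide scavenger and a clean-up enzyme. Among a list of 79 genes of this chemistry these 3 were matched to a probe, and Nfe2l2 was not analysed here, so the genotype was not checked against its own transcript.

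RefSeq promoter sequence (build GRCm38.p6) was matched for 2 of the members. It is shown because the element that Nrf2 binds would lie in such a window if it were close to the start. Each line gives the 250 bases before the RefSeq start site, 5′ to 3′ on the plus strand, at chr2:122315422-122315671 for Duox1 and chr8:84969372-84969621 for Prdx2, and the capitals mark CG dinucleotides.
Duox1: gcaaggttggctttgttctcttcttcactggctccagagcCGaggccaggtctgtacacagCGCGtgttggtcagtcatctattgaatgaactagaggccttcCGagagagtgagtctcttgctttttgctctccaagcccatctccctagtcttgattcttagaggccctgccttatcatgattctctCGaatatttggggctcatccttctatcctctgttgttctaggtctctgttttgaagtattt
Prdx2: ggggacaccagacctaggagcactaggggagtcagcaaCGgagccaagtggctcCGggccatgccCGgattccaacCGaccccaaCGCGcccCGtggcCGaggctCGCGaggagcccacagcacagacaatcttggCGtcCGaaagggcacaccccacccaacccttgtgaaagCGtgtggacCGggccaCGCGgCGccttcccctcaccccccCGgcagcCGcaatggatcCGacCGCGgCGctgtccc
The core of the element, TGACNNNGC, was searched on both strands and is in neither window, while 10.2% of 32851 windows of this length hold it. The windows differ in base composition. That of Duox1 has 5 CG dinucleotides and 47.6% G or C, near the median window with 6 and 52.4%. That of Prdx2 has 23 and 69.2%, and 13.3% of windows have as many CG dinucleotides.

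The 6 arrays fell into 2 scans. Scan 1 held the 3 wild-type arrays and knockout 1, and scan 2 held knockouts 2 and 3. The 75th percentile of the circRNA signal, to which each array was scaled, lay between 231 and 481 intensity units and was lowest on wild type 3. The scaled value used below is the log2 processed signal minus that percentile, so a value of 0 is as bright as the 75th percentile. The 3 mice per genotype limit the precision of every comparison. All 10 spots of each member were well above background on all 6 arrays. The cell type lists, 36 marker genes in all, had a probe for Chgb of neurons, Apoe of astrocytes and Mbp of oligodendrocytes, each well above background on all 6 arrays. Markers of microglia, endothelium, choroid plexus and red blood cells had none. In bulk tissue, fewer cells of a type and less RNA per cell cannot be told apart.

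Duox1 was the member with the greatest difference between genotypes. Its scaled log2 signal was 0.28, -0.58 and -1.13 on wild type 1 to 3 and -1.46, -2.31 and -2.39 on knockout 1 to 3. Every knockout array lay below every wild-type array, but the gap between wild type 3 and knockout 1 was 0.33, less than the SD within either genotype. The wild-type mean was -0.48 ± 0.71 and the knockout mean -2.05 ± 0.52 (SD, n = 3 each). On the log2 scale the knockout minus the wild type was -1.58 (SE 0.394, 95% confidence interval -2.49 to -0.66), or 2.98-fold lower in the knockout. The difference had an unadjusted p of 0.00434 in limma and did not pass after adjustment over all 13441 probes tested (limma with Benjamini-Hochberg adjustment, adjusted p = 0.0731).

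**Figure D1:**
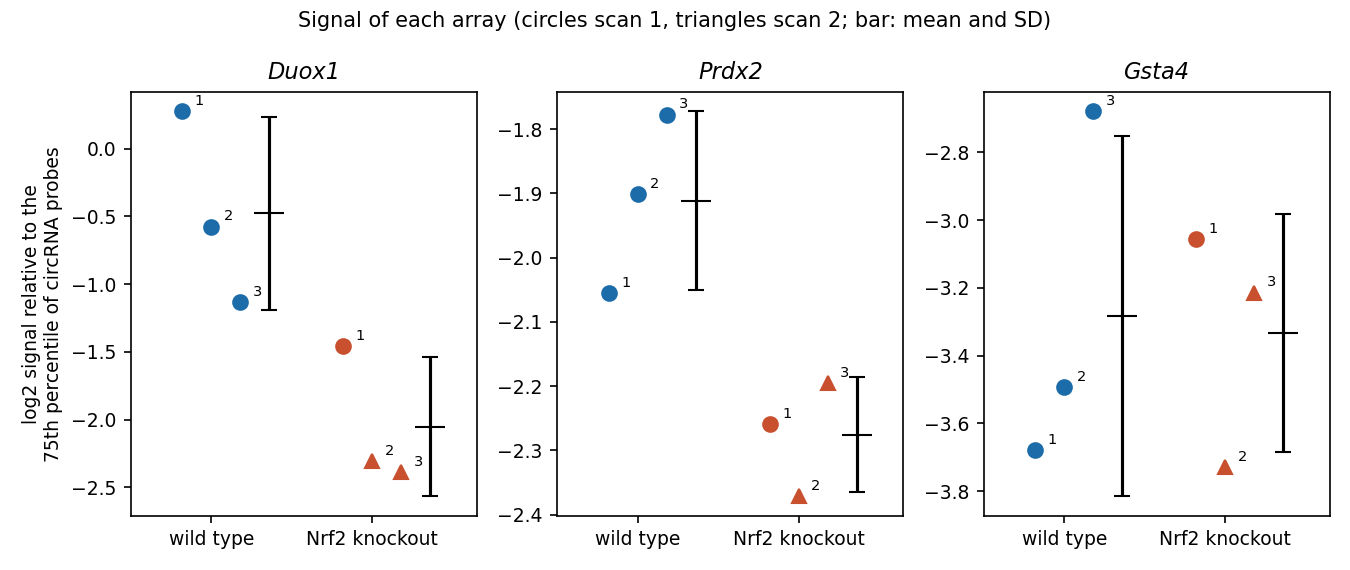
Scaled log2 signal of the Duox1, Prdx2 and Gsta4 probes on each array (y axis, relative to the 75th percentile of the circRNA probes, with a different range in each panel), by genotype, with the mouse number beside each point; circles are scan 1, triangles scan 2, and the bar is mean and SD of 3 mice. All knockout points lie below all wild-type points for Duox1 and Prdx2, while the genotypes overlap for Gsta4.

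The wild-type arrays differed widely in Duox1. Before scaling, the mean intensity of its spots was 487, 251 and 105 units on wild type 1 to 3, a 4.62-fold range, and 139, 97.2 and 63.2 units on knockout 1 to 3. On this scale knockout 1 was above wild type 3, so the separation of the genotypes came with the scaling, wild type 3 being the dimmest array overall. With arrays scaled to the median of their mRNA probes, wild type 3 and knockout 1 were nearly level, at 2.35 and 2.34. After scaling to the circRNA percentile the wild-type range was still 2.66-fold. The wild-type SD of 0.71 was exceeded by 3.71% of probes tested, against a median SD of 0.19. The 10 spots on an array agreed far better than the arrays did, with an SD over spots of 0.06 to 0.28 (log2) and a standard error of at most 0.12. Spot noise within an array was therefore smaller than the difference between any neighbouring wild-type arrays. With 1 array per mouse, differences between mice cannot be told apart from those of RNA handling or between arrays.

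The highest Duox1 array also had the most spots marked by the scanner software. On wild type 1, 5 of the 10 spots were marked as non-uniform and were left out, and none was on any other array. The marked spots were brighter on average, with a mean of 607 units against 487 for the rest, and their range of 523 to 656 units overlapped the 385 to 592 of the unmarked spots. With them kept, wild type 1 was at 0.42 in place of 0.28 and the log2 fold change was -1.62 (limma adjusted p = 0.0764). The raw Duox1 signal was also set against the local background of the same spot, as a median over all 10 spots, marked ones included. It was 23.7, 14.5 and 6.91 times as high on wild type 1 to 3 and 9.27, 5.91 and 4.05 times on knockout 1 to 3. The lowest array, knockout 3, was the closest to its background.

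**Figure D2:**
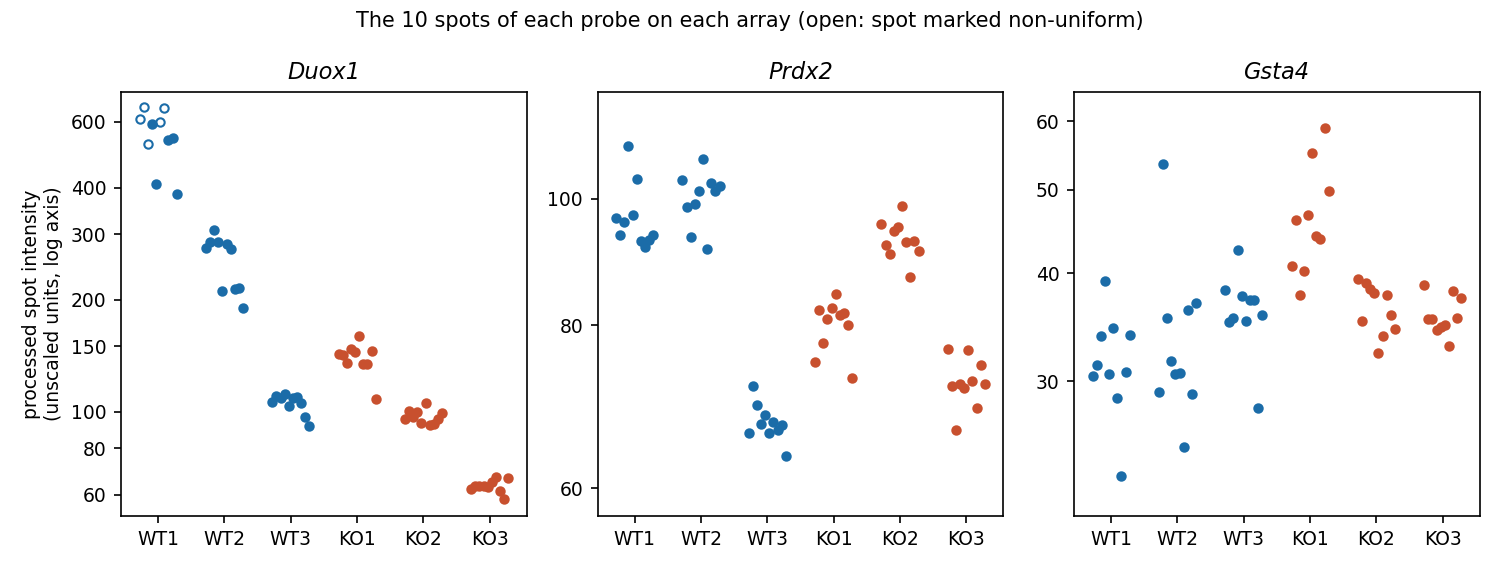
Processed intensity of the 10 single spots of each probe on each array (y axis, unscaled intensity units on a log axis, with a different range in each panel), with wild-type arrays WT1 to WT3 in blue, knockout arrays KO1 to KO3 in red, and open circles for spots marked non-uniform. For Duox1 the wild-type arrays step down from 487 to 105 units and knockout 1, at 139, lies between wild type 2 and wild type 3.

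The Duox1 difference was smaller on the knockout array scanned with the wild type. Within scan 1, knockout 1 differed from the wild-type mean by -0.98 on the log2 scale. Scan 1 holds this 1 knockout array, so knockouts are assumed to vary as the wild-type arrays do. The limma fit also draws each probe's spread toward that of all probes tested. The fit with the scan as a block is the same contrast and gave -0.98 (SE 0.503, limma adjusted p = 0.574). Neither tests the genotype across knockout mice. Knockouts 2 and 3, of scan 2, differed from knockout 1 by a further -0.89 on average. Without knockout 1 the log2 fold change was -1.87 and passed (limma adjusted p = 0.0329), but all knockout arrays are then of scan 2, so that genotype and scan cannot be told apart. Duox1 also passed after normexp background correction with the same scaling, at a smaller change of -1.15 (limma adjusted p = 0.0499). In these settings 2021 of 13435 and 425 of 13441 probes tested passed, against 20 of 13441 in the main fit. Over all alternatives run its limma adjusted p ranged from 0.0329 to 0.574.

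Prdx2 gave the tightest values of the members. Its scaled log2 signal was -2.05, -1.90 and -1.78 on wild type 1 to 3 and -2.26, -2.37 and -2.20 on knockout 1 to 3. The genotypes did not overlap, and the lowest wild-type array stood 0.14 above the highest knockout array. The means were -1.91 ± 0.14 and -2.28 ± 0.09 (SD, n = 3 each). They differed by -0.36 on the log2 scale (SE 0.161, 95% confidence interval -0.74 to 0.01, limma adjusted p = 0.194), which did not pass. Knockout 1 within scan 1 gave -0.35, a value from 1 knockout array, and knockouts 2 and 3 differed from knockout 1 by -0.02 on average. The same difference was -0.89 for Duox1.

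The Prdx2 difference was -0.36 relative to the circRNAs and -0.004 relative to the mRNA probes. Unscaled, Prdx2 had 96.7, 99.98 and 67.4 units on wild type 1 to 3 and 79.8, 93.0 and 72.3 on knockout 1 to 3, and these overlap. The median of the mRNA probes tested, relative to the circRNA percentile, was -3.09, -2.99 and -2.91 on wild type 1 to 3 and -3.38, -3.90 and -3.31 on knockout 1 to 3. It was thus lower on every knockout array, as Prdx2 was. With each array scaled to the median of its 50 mRNA probes in place of the circRNA percentile, Prdx2 was at 1.57, 1.63 and 1.70 in wild type and 1.54, 1.74 and 1.61 in knockout. These differ by -0.004 (SE 0.183, 95% confidence interval -0.42 to 0.41). Prdx2 is abundant in red blood cells as well as in neurons, and the part of blood in the tissue was not tested.

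Gsta4 showed no difference beyond the spread between arrays. Its scaled log2 signal was -3.68, -3.49 and -2.68 on wild type 1 to 3 and -3.06, -3.73 and -3.21 on knockout 1 to 3. The genotypes overlapped, and wild type 3 was the highest array and knockout 2 the lowest. The means were -3.28 ± 0.53 and -3.33 ± 0.35 (SD, n = 3 each). They differed by -0.05 on the log2 scale (SE 0.303, limma adjusted p = 0.934). The 95% confidence interval of -0.75 to 0.66 leaves room for a change in either direction, so the values do not show that Gsta4 was alike in the genotypes. The sign was not stable, with 0.23 within scan 1, 0.22 without scaling, 0.31 with scaling to the mRNA probes, 0.25 without wild type 3 and 0.15 without knockout 2.

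The unscaled Gsta4 signal hardly varied among wild-type arrays. It was 31.4, 33.2 and 36.1 units on wild type 1 to 3 and 45.9, 36.3 and 35.7 on knockout 1 to 3, a 1.15-fold range in wild type that became 2.00-fold after scaling. Only knockout 1 stood out, above the other 5 arrays. The probe was closest of the members to its local background, with a raw signal 2.64 to 3.95 times as high, and its spots varied with an SD of 0.07 to 0.30 (log2).

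As a group, 0 of the 3 members passed the adjusted threshold of 0.05 in limma, where 0.149% of all probes tested did (20 of 13441). At an unadjusted p under 0.05, 1 member, Duox1, was lower, where 15.4% of probes were lower. That adjusted count was 2021 without knockout 1, 372 without wild type 2 and 5 without wild type 3. It was 0 without wild type 1, knockout 2 or knockout 3, where limma still gave 2676, 2548 and 2839 probes at an unadjusted p under 0.05. The knockout arrays lay wholly below the wild-type arrays for 2 of the 3 members and for 17.3% of all probes measured on 6 arrays. Among the 44 mRNA probes tested, the class to which the members belong, the count was 20. Of all probes tested, 2.66% had a lower log2 fold change than Duox1, 22.3% than Prdx2 and 42.2% than Gsta4.

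The mRNA probes as a whole were lower relative to the circRNAs. Of the 44 tested, 39 had a negative log2 fold change and 5 a positive one. Their median was -0.59, against 0.04 for all probes tested, and 0 of the 44 passed over all probes (the lowest adjusted p in limma was 0.0711). Before adjustment 21 of the 44 had a p under 0.05 in limma, all with a negative change. Of all 13441 probes tested, 3674 had such a p in either direction, 2069 of them lower. With arrays scaled to the median of their mRNA probes, 11 of the 44 had such a p in either direction. These counts do not separate genotype from scan, as scan 2 held only knockout arrays. Ordered from the lowest change, Duox1 was at rank 5 of the 44, Prdx2 at 31 and Gsta4 at 39. Duox1 was thus below the median mRNA probe, and both Prdx2 and Gsta4 were above it.

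**Figure D3:**
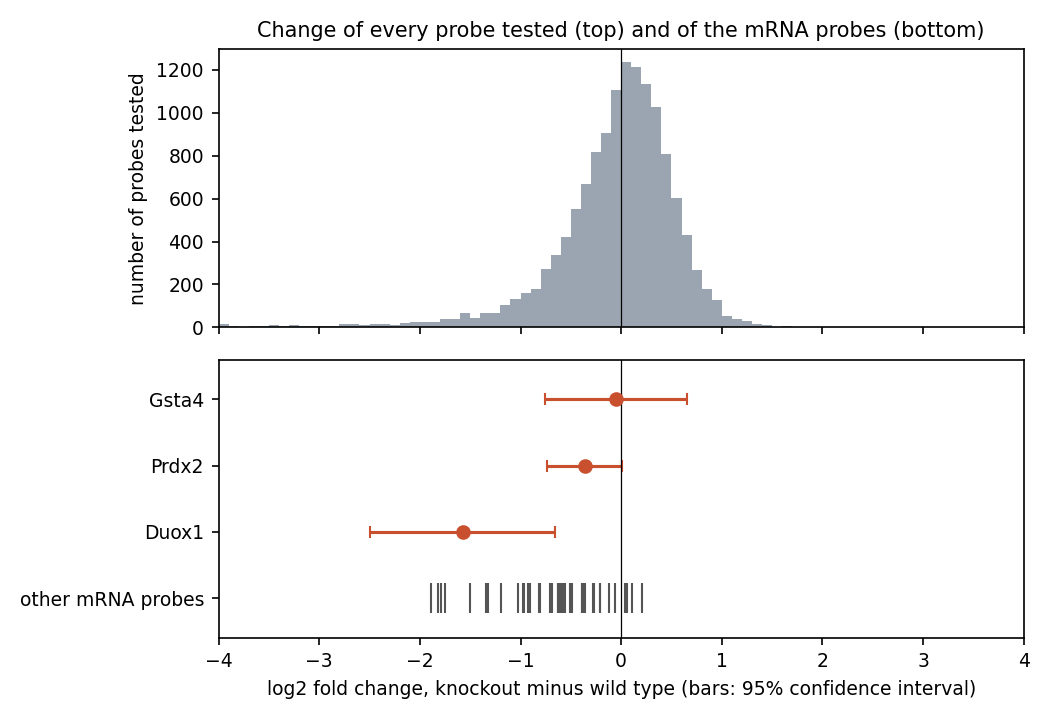
Top, the number of probes (y axis) at each log2 fold change of knockout minus wild type (x axis, bins of 0.1, with values beyond 4 either way placed in the end bins) over the 13441 probes tested; bottom, the 3 members with their 95% confidence intervals and the other mRNA probes as ticks. Duox1 at -1.58 lies in the lower tail, Prdx2 at -0.36 is closer to 0, and Gsta4 at -0.05 lies on it.

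Differences between members within an array do not change when a whole array is shifted, as each scaling here except quantile normalization does. Duox1 minus Prdx2 was 2.33, 1.33 and 0.64 on wild type 1 to 3 and 0.80, 0.06 and -0.19 on knockout 1 to 3 (log2). The genotypes overlapped, because knockout 1 lay above wild type 3. The difference between genotypes was -1.21 (SE 0.573, exact two-sided permutation test, p = 0.2, adjusted p = 0.3 over 3 pairs, with 0.1 the smallest p that 3 against 3 allows). Duox1 minus Gsta4 was 3.95, 2.92 and 1.55 in wild type and 1.60, 1.42 and 0.83 in knockout, a difference of -1.53 (SE 0.736, exact permutation p = 0.2, adjusted p = 0.3). Prdx2 minus Gsta4 differed by -0.31 (SE 0.286, exact permutation p = 0.3, adjusted p = 0.3). With 3 mice per genotype this test cannot reach a p of 0.05, so it does not decide whether Duox1 differed from Prdx2 or Gsta4 in its change. Knockout 1 alone gave -0.63, -1.21 and -0.58 for these pairs against the wild-type mean.

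The choice of scaling moved the members together. The median change of all probes tested was 0.04 with the circRNA percentile, 0.31 without scaling and 0.40 with the mRNA median. Relative to that median, the change was -1.61 for Duox1, -0.40 for Prdx2 and -0.09 for Gsta4 with both the circRNA percentile and the mRNA median, as a shift of whole arrays must give. Quantile normalization, which is not such a shift, gave -1.65, -0.45 and -0.09. Duox1 was negative under each of the 6 scalings, from -1.60 to -1.21. Prdx2 ran from -0.39 to -0.004, and Gsta4 from -0.07 to 0.31.

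**Figure D4:**
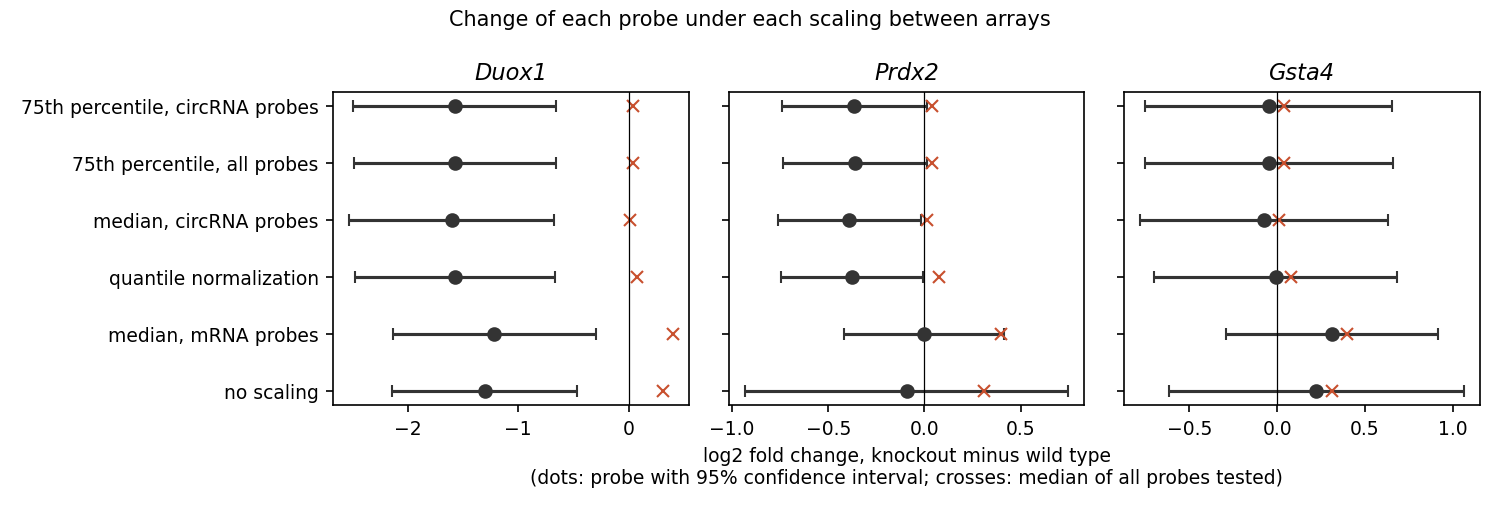
Log2 fold change of knockout minus wild type (x axis, with a different range in each panel) of each member under 6 scalings between arrays (rows), as dots with 95% confidence intervals from limma, and the median of all probes tested as crosses. The Duox1 interval stays below 0 in each row, while Prdx2 moves to -0.004 and Gsta4 to 0.31 when arrays are scaled to their mRNA probes. Without scaling, limma gave every member the same standard error (0.429), so the intervals of that row do not reflect each probe's own spread.

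Profiles over the 6 arrays were compared by the root mean square difference of log2 values after each probe's mean was taken off, over the 37 other mRNA probes that were tested and had a symbol. Those nearest to Duox1 were Dnajc11, a mitochondrial J-domain protein (0.43), and Tm9sf1 (0.46), against a median of 0.73. Dnajc11 was well above background on only 3 arrays. Nearest to Prdx2 were Hyal3, of the hyaluronidase family (0.17), and Gamt, an enzyme of creatine synthesis (0.17), against a median of 0.30. Hyal3 was well above background on 5 of the 6 arrays. Its genotypes overlapped, at -5.28, -4.62 and -4.93 in wild type and -5.11, -5.30 and -5.23 in knockout, while those of Prdx2 and Gamt did not. The measure is also small between probes that each vary little over the arrays, so a low value need not mean a shared pattern. Gsta4 was nearest to Actb, the cytoskeletal actin (0.25), and Apoe, a lipid carrier (0.26), against a median of 0.49. These are descriptions over 6 arrays that share the scan split.

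The 3 cell markers had different profiles. Chgb, a secretory granule protein, was at -0.98, -0.93 and -0.63 on wild type 1 to 3 and -0.92, -1.46 and -2.02 on knockout 1 to 3 (knockout minus wild type -0.62, SE 0.284, limma adjusted p = 0.203). Like Duox1, it was lowest on the scan 2 knockouts. Apoe was at 2.17, 2.11 and 2.65 in wild type and 2.41, 2.40 and 2.42 in knockout, a log2 fold change of 0.10 (SE 0.192). Mbp, a myelin protein, was at 0.34, -0.18 and 0.16 in wild type and 0.24, 0.12 and -1.10 in knockout, low on knockout 3 alone. The part of cell makeup in the members' values was not tested.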

How the data were processed

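The values are spot intensities deposited by the authors, from Agilent Feature Extraction 11.0.1.1 with protocol GE1_1100_Jul11, per the file headers. The software had subtracted background and applied no scaling between arrays. RNA was RNase R treated, randomly primed and labelled with Cy3, per the labels' protocols. The authors' deposited log2 table covers 13817 circRNA probes, with normalization not given in the sources used here. It was used only for the count of calls.

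Spots marked non-uniform were left out, log2 signals of a probe's spots averaged, and each array's 75th percentile over circRNA probes subtracted. Probes with at least 50% of spots well above background on at least 3 arrays were tested with lmFit and eBayes (limma 3.58.1, R 4.3.3), with genotype alone in the model, two-sided, and Benjamini-Hochberg adjustment over 13397 circRNA and 44 mRNA probes and a threshold of 0.05. The fit was run on simulated arrays with known changes and independent noise. These held no scan effect, so that run does not bear on the scan split of the real arrays. Of 50 mRNA probes 44 matched a RefSeq symbol (GRCm38.p6).

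The text names the members, listed pathway and marker genes, and each member's 2 nearest mRNA probes. Members and lists were chosen with earlier results of these data known. Alternatives were other scalings, normexp (offset 50, on median spot signals because the files used here give no mean), spot and probe filters, variance models, blocks and arrays left out. Figures were drawn with matplotlib 3.10.9.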

Additional observations from a re-analysis of the deposited data

How the results depend on the processing

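Adjusted p-values here are from limma. Duox1 stayed negative in all 23 alternatives (-1.90 to -0.98). It passed in 3, which were normexp with the 75th percentile (-1.15), the replicate number as a block (-1.58, adjusted p = 0.0434) and without knockout 1, and its adjusted p ran from 0.0329 to 0.574. In these 3 settings 425 of 13441, 429 of 13417 and 2021 of 13435 probes tested passed, against 20 of 13441 in the main fit. Leaving out 1 array at a time gave -1.90 to -1.20 for Duox1, -0.44 to -0.30 for Prdx2 and -0.25 to 0.25 for Gsta4. Prdx2 passed in 0 of 23 (-0.44 to -0.004). Gsta4 turned positive with the mRNA median (0.31), without scaling (0.22), without wild type 3 (0.25) and without knockout 2 (0.15). It was also positive with the scan block (0.23) and within scan 1 (0.23), which are the same contrast. The pair differences kept their sign in 13 alternatives each, with -1.61 to -0.76 for Duox1 minus Prdx2, -2.16 to -0.95 for Duox1 minus Gsta4 and -0.55 to -0.18 for Prdx2 minus Gsta4 when 1 array was left out.

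The 20 calls over all probes became 4 with quantile normalization, 1366 with the mRNA median, 481 without scaling, 425 after normexp, 10 with raw median signals and 429 with the replicate block. They became 0 after normexp with quantile normalization, with outlier spots kept, with no filter on dim probes, with the scan block, within scan 1 and in the authors' table, and 0 to 2021 when 1 array was left out. Where limma called 0, it gave 1201 to 3850 probes at an unadjusted p under 0.05. The 0 calls among mRNA probes became 1 with the mRNA median, 4 without scaling, 2 after normexp, 4 with the replicate block and 0 to 20 when 1 array was left out. The cause of these shifts was not tested. The deviations of same-numbered arrays had correlations of 0.19, -0.04 and 0.21 over circRNAs, and not every array correlated best with its own number. The numbers were therefore not taken as pairs. The settings without scaling and with population outliers left out were chosen after seeing the data.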

Other observations

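A single Duox1 spot, singled out after its values were seen, was low on most arrays. This spot, in row 187, was the lowest of its array on 4 of the 6 arrays (385, 189, 91.8 and 108 units on wild type 1 to 3 and knockout 1) and was not on knockouts 2 and 3 (99.2 and 66.4). Averaged over the 6 arrays it was 0.23 below the mean of the Duox1 spots on the log2 scale (-0.23). The next lowest Duox1 spot was in row 76 (-0.12), and the spots in rows 112 and 122 were above the mean (0.12 and 0.07). A Gsta4 spot also in row 187 was at -0.03 and one in row 191 at 0.06. Mean deviations ran from -0.13 to 0.10 over the Gsta4 spots and from -0.04 to 0.07 over the Prdx2 spots. No relation of place to signal was tested.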
